A study of Oryza sativa with 81 samples.

Results

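Filling panicles of the rice parental lines WFB and RFB were compared with filling panicles of the parental lines R998 and R308. The comparison used 12 libraries of the 81 in the series, 3 from each of the 4 lines, chosen by the labels for line and tissue: WFB replicates 7 to 9 and RFB replicates 7 to 9 against R998 replicates 7 to 9 and R308 replicates 7 to 9. The series holds 9 lines of Oryza sativa in 3 tissues (young seedlings, young panicles and filling panicles), and its title concerns the prediction of heterosis, the superiority of a hybrid over its parents. Its 5 F1 hybrids are WY998 (WFB by R998), WY308 (WFB by R308), RY998 (RFB by R998), RY308 (RFB by R308) and WR (WFB by RFB), so the comparison is between the parents on either side of 4 of the 5 crosses. All plants grew in 1 experimental field, no treatment or transgene is given for any line, and the labels do not say what the line names stand for.

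A filling panicle is the flowering head of rice after fertilisation, when the endosperm of each grain lays down starch and storage protein. Its RNA comes from developing grains together with hulls and branches, so a library mixes several organs, and grains on 1 panicle do not all fill at the same time. In a bulk sample of this kind, fewer cells of a type and less RNA per cell cannot be told apart. When 2 inbred lines are crossed, the hybrid carries 1 copy of each gene from either parent, and genes whose level differs between the parents are those at which a hybrid can lie between them, match 1 of them or pass beyond them.

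The tissue label was read against genes enriched in 1 tissue in the hybrids, which use no library of the 4 parents. The 661 filling-panicle-enriched genes held 16.5% to 38.8% of the counts in the 12 libraries, but 0.119% to 0.270% in the 24 libraries of young seedlings and young panicles of the same lines. Library totals ran from 29054241 to 38292981 counts over 38714 gene models, of which 24583 had enough counts to be tested. Libraries R998 replicate 9 and R308 replicate 9 stood apart. R998 replicate 9 had the lowest total and the lowest mean correlation with the other libraries of its line, 0.951, against 0.966 to 0.988 for the other 11. R308 replicate 9 had counts on 37377 gene models, against 27093 to 28816 in the other 11, and the 6984 models that had at most 1 count in all other libraries together held 0.247% of its counts, with none of them tested. Counts and shares that moved most with these libraries are given with and without them. The files pair no identifier with a name. Single genes are therefore called by identifier, their functions are not described, and markers of cell types could not be read. The labels speak of replicates and do not say that they were separate plants or plots, so p-values measure the spread between these libraries, which may be technical. The edgeR p-values also treat the 4 lines as given, and the exact permutation tests exchange single libraries across lines. With whole lines exchanged, 2 lines against 2 allow no two-sided exact p below 0.333.

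Of the 24583 genes tested, 8296 (33.7%) differed in the average of WFB and RFB minus the average of R998 and R308 at an adjusted p under 0.05 (edgeR quasi-likelihood test with Benjamini-Hochberg adjustment). In WFB and RFB 3981 genes (16.2%) were higher and 4315 (17.6%) were lower. Most of these differences were small. The median size of a called difference was 0.60 on the log2 scale among genes higher in WFB and RFB and 0.79 among genes lower in them, and 2811 genes (11.4%) were called and differed at least 2-fold, 1131 of them higher and 1680 lower. At 8-fold or more there were 361 higher and 458 lower genes, and at 32-fold or more 158 and 260.

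The balance of higher and lower genes differed between levels, and R308 replicate 9 moved it at every level. Below 1 CPM (counts scaled by library size) in the mean of the 12 libraries, 7.27% of 3715 genes were higher in WFB and RFB and 20.8% were lower. Between 1 and 5 CPM the shares were 15.6% and 20.3% of 5434 genes. Between 5 and 20 CPM they were 19.3% and 17.3% of 7212 genes, and at 100 CPM or more 16.9% and 12.9% of 1416 genes. Without that library 14.3% of the genes below 1 CPM were higher in WFB and RFB and 16.1% lower. In every other class the balance then turned. Between 1 and 5 CPM it became 18.8% higher and 18.2% lower. It became 16.9% and 17.6% between 5 and 20 CPM, 14.1% and 16.8% between 20 and 100 CPM, and 13.7% and 15.3% at 100 CPM or more. Without R308 replicate 9 and R998 replicate 9 together 19.3% of the lowest class were higher and 19.4% lower, with 24.6% and 23.1% between 1 and 5 CPM. The shares were 23.4% and 24.2% between 5 and 20 CPM, 23.1% and 24.8% between 20 and 100 CPM, and 28.9% and 24.1% at 100 CPM or more. The balance of the 2-fold genes turned as well, to 1831 higher and 1647 lower without both libraries. What part either library had in the balance beyond these values was not tested.

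An average over lines can come from 1 line alone, so each line of WFB and RFB was also set against each line of R998 and R308. In all 4 line pairs and in 1 direction, 1636 genes (6.66%) were called, 764 (3.11%) higher and 872 (3.55%) lower in WFB and RFB. They made up 19.7% of the genes called in the average. Their differences were larger than those of the called genes at large, with a median size of 1.23 on the log2 scale for the higher and 1.48 for the lower genes, and 174 higher and 258 lower genes differed at least 8-fold. Between the groups the 6 libraries of WFB and RFB did not overlap the 6 of R998 and R308 at 3054 genes (12.4%), and 1601 of the 1636 genes were among them. Without R998 replicate 9 the number of genes called in all 4 pairs was 2528, and without both libraries that stood apart 2996. The 1636 genes had a median level of 7.96 CPM, against 9.78 CPM for all tested genes, and a median length of 1497 bases, against 1524 bases.

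Part of the rest of the average was called against only 1 of R998 and R308. A missing call against the other line does not show that it did not differ. Both pairs with R308, and neither pair with R998, were called at 2591 genes, 1282 of them higher and 1309 lower in WFB and RFB. At these genes the median difference from R308 was 0.89 on the log2 scale in size and that from R998 was 0.23, and 2160 of them (83.4%) were still called in the average. Both pairs with R998 and neither with R308 were called at 1179 genes, 632 higher and 547 lower. Their median size was 1.25 against R998 and 0.30 against R308, and 1015 of them (86.1%) were called in the average. The gap between these median sizes follows in part from how the genes were chosen. In the line without calls the direction was the same at 75.3% of the R308 genes and 74.1% of the R998 genes. Both differences use the same WFB and RFB libraries, so a shared direction follows in part from that. It was not counted over all tested genes and does not show a difference in the line without calls. R998 and R308 were called apart at 61.4% of the R308 genes and 61.2% of the R998 genes, against 16.3% of all tested genes. That excess, too, follows in part from choosing genes called against only 1 of the 2 lines. At 82 genes all 4 pairs were called with R998 and R308 on opposite sides of WFB and RFB. R998 was the lower of the 2 at 44 of these genes and the higher at 38, and 29 of the 82 were called in the average. A further 3456 genes called in the average showed none of these patterns of line pairs. Without R998 replicate 9 the genes called against R308 only numbered 3099, those against R998 only 2523 and those on opposite sides 177. Without both libraries that stood apart the numbers were 2778, 3038 and 215. Which of R998 and R308 had more genes called against it alone thus depended on these libraries.

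**Figure D1:**
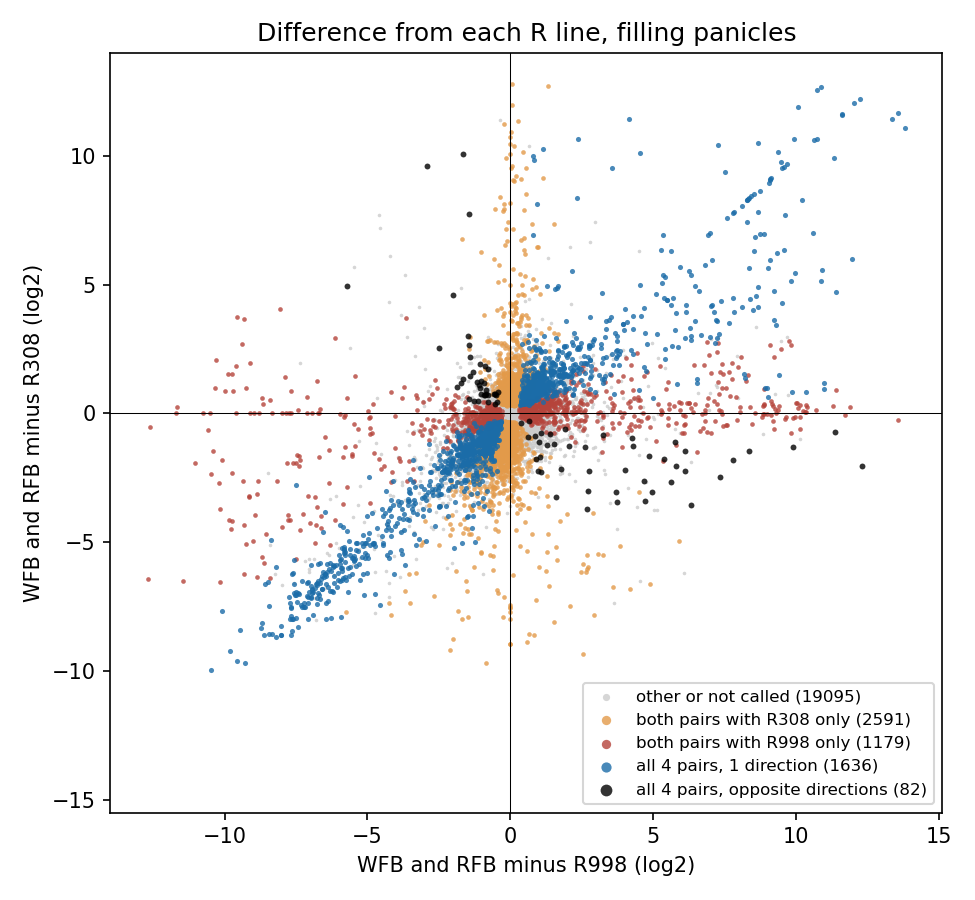
Each point is 1 of the 24583 tested genes, with the log2 difference of WFB and RFB from R998 across and from R308 upwards, coloured by which line pairs were called. The 1636 genes called in all 4 pairs in 1 direction lie along the diagonal, the 2591 and 1179 genes called against R308 only or R998 only lie along an axis, and the 82 genes with opposite directions lie in the other quadrants.

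The groups were unlike in how far their own lines differed. WFB and RFB differed at 117 genes (0.476%), 67 higher and 50 lower in WFB, and R998 and R308 differed at 3997 genes (16.3%), 1892 higher and 2105 lower in R998. By pair, WFB differed from R998 at 4334 genes (17.6%) and from R308 at 6912 (28.1%), and RFB differed from R998 at 4127 (16.8%) and from R308 at 5637 (22.9%). These pairs share libraries, and the spread within a line differed too, so the counts are given side by side. Without R998 replicate 9 the number of genes called between R998 and R308 was 6973, and without WFB replicate 7 the number between WFB and RFB was 73. Of the 8296 genes called in the average, 2339 (28.2%) were also called between R998 and R308 and 62 between WFB and RFB.

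A pair of genes shows what the average holds when R998 and R308 stand apart. OsR498G0816020800.01 had 29.8, 28.7 and 26.2 CPM in WFB and 24.9, 24.2 and 26.7 CPM in RFB, against 24.0, 20.5 and 32.6 CPM in R998 and no count in any library of R308. Libraries of R998 overlapped those of WFB and RFB (adjusted p = 0.618 and 0.945, edgeR), and the level in R998 was at least 788-fold higher than R308, with 3 counts over the group taken as the floor of R308. The gene was called in the average all the same, through R308 alone (adjusted p = 3.74e-08, edgeR). OsR498G1221362100.01 had 20.6, 17.3 and 19.5 CPM in WFB and 19.5, 19.2 and 19.3 CPM in RFB, against no count in R998 and 81.4, 83.6 and 71.6 CPM in R308. Here the order of the lines was R308, then WFB and RFB together, then R998, and no libraries of neighbouring steps overlapped. R308 was above WFB and RFB by 2.04 and 2.03 on the log2 scale, while the fitted average put WFB and RFB 5.14 higher, a value that depends on the small count added to a line at 0.

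The largest differences shared by all 4 pairs were close to presence against absence. OsR498G1119646100.01 had 45.4, 49.2 and 43.7 CPM in WFB and 46.9, 44.6 and 47.0 CPM in RFB, against no count in R998 and 0, 0 and 0.0301 CPM in R308. WFB and RFB held 9191 counts together, and R998 and R308 held 1 count. The ratio of the scaled sums was 9153, with a 95% interval for counting error of 1642 to 361565 (adjusted p = 9.67e-10, edgeR).

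OsR498G0714047000.01, one of the filling-panicle-enriched genes, had 47.0, 48.9 and 45.3 CPM in WFB and 70.1, 63.6 and 51.6 CPM in RFB, against no count in R998 and 0, 0.0360 and 0.0301 CPM in R308. Its 10649 counts in WFB and RFB stood against 2 in R998 and R308, a ratio of 5303 with a counting interval of 1468 to 43790 (adjusted p = 1.001e-09, edgeR). Every library of RFB was above every library of WFB, a gap small beside that to R998 and R308. WFB and RFB were not called apart at this gene (adjusted p = 0.870, edgeR).

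In the other direction, OsR498G0203221200.01 had 0.0523, 0.208 and 0.178 CPM in WFB and 0, 0.160 and 0.163 CPM in RFB, against 39.3, 50.6 and 47.0 CPM in R998 and 53.8, 50.5 and 45.1 CPM in R308. The difference was -8.50 on the log2 scale (SE 0.26, adjusted p = 1.55e-09, edgeR), from 26 counts against 9382. OsR498G0815279500.01 had 0, 0.0260 and 0 CPM in WFB and 0, 0 and 0.0651 CPM in RFB, against 6.87, 8.17 and 6.74 CPM in R998 and 8.56, 7.24 and 5.87 CPM in R308. R998 and R308 held 482 times the level of WFB and RFB, with a counting interval of 165 to 2340 on 3 counts in WFB and RFB (adjusted p = 1.22e-08, edgeR). At both genes R998 and R308 overlapped, and so did WFB and RFB.

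**Figure D2:**
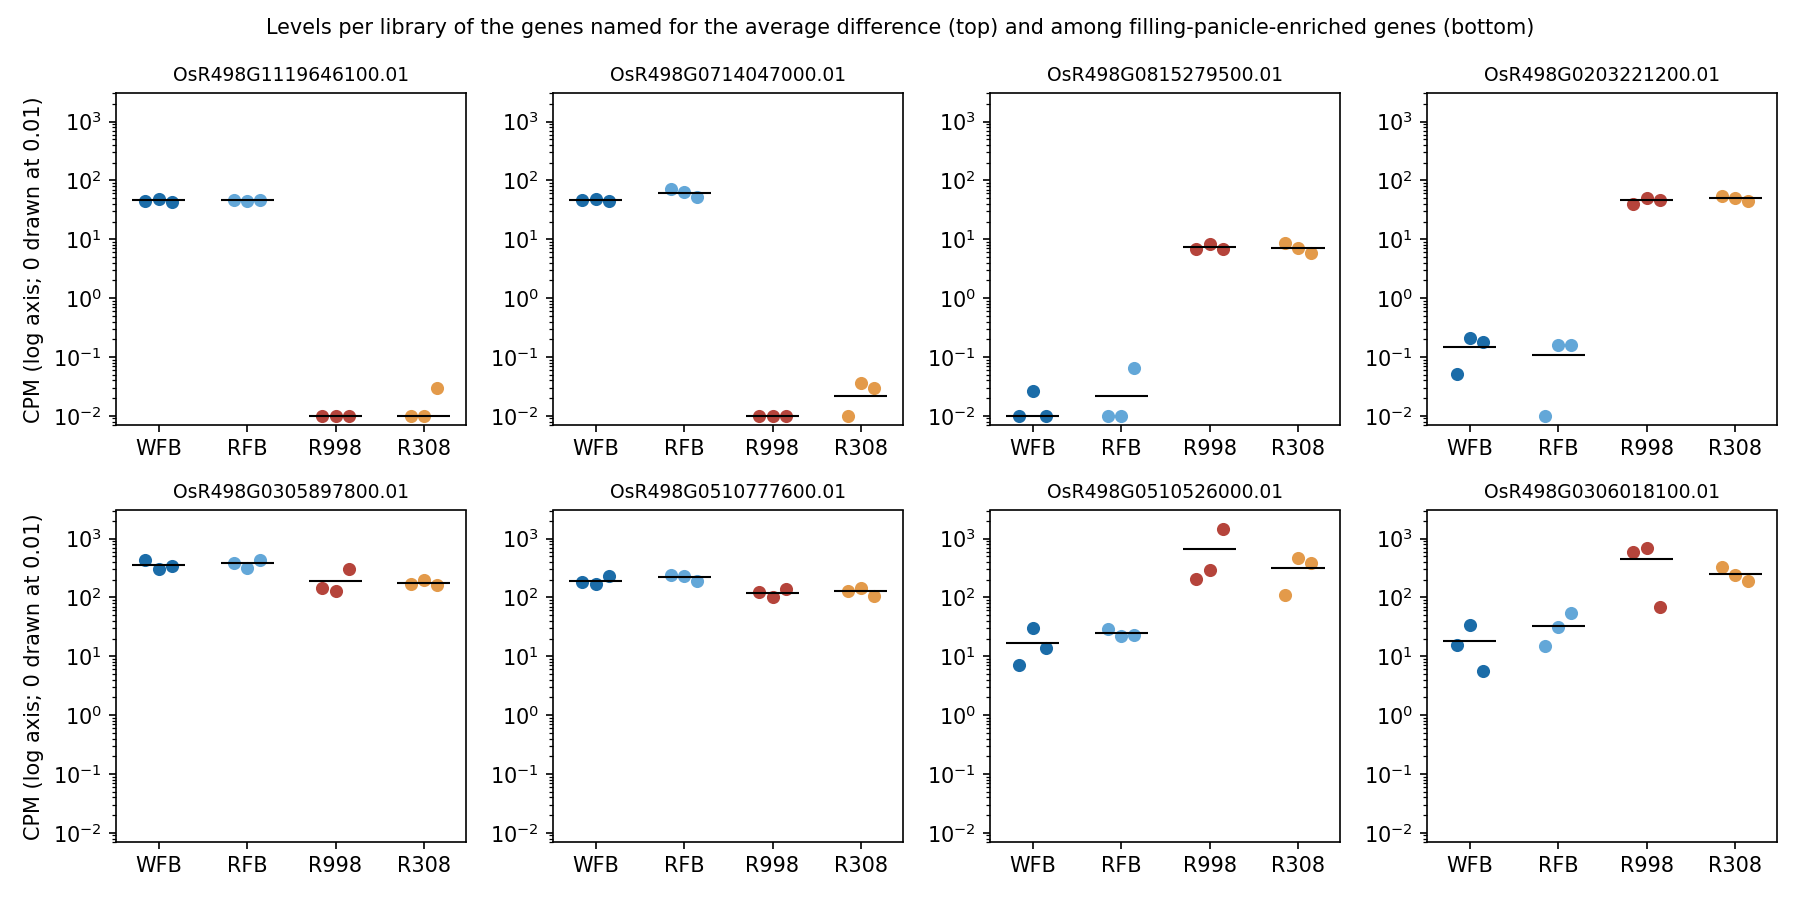
Points are single libraries and bars are the means of 3 libraries of a line, in CPM on a log axis, with 0 drawn at 0.01. The upper row holds the genes with the largest average difference in either direction and the lower row the most abundant filling-panicle-enriched genes, such as OsR498G0305897800.01, where WFB averaged 356 CPM and RFB 378 CPM, against 192 CPM in R998 and 176 CPM in R308.

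Complete absence in a whole group was rarer. No count fell on 27 genes in the 6 libraries of WFB and RFB although they averaged at least 1 CPM in R998 and R308. The highest of them averaged 6.36 CPM, and 12 were called in all 4 pairs. In the 6 libraries of R998 and R308 no count fell on 17 genes with at least 1 CPM in WFB and RFB. Of these 17 the highest averaged 18.0 CPM, and all 17 were called in all 4 pairs. A count of 0 sets a limit on the level at this depth and does not show that a gene is missing from a line.

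Filling-panicle-enriched genes held 27.1% ± 3.85 of all counts in WFB and RFB and 26.1% ± 8.38 in R998 and R308 (SD, n = 6 each). The difference of 0.965 percentage points was smaller than the spread between libraries (two-sided exact permutation test over 924 splits, p = 0.803, against a smallest possible p of 0.00216). Without R998 replicate 9 the difference was 3.51 percentage points (p = 0.275, exact permutation test), and without it and R308 replicate 9 together 5.05 (p = 0.143, exact permutation test). By library the share was 21.9%, 24.5% and 27.2% in WFB and 32.6%, 29.98% and 26.1% in RFB, against 19.6%, 16.5% and 38.8% in R998 and 21.3%, 30.6% and 29.7% in R308. R998 held both extremes, the highest in replicate 9 and the lowest in replicate 8, so the spread within this line covered all other libraries.

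Young-panicle-enriched genes held 0.756% ± 0.112 of all counts in WFB and RFB and 0.927% ± 0.207 in R998 and R308 (SD, n = 6 each, p = 0.113, exact permutation test). By library the share was 0.887%, 0.859% and 0.648% in WFB and 0.646%, 0.672% and 0.824% in RFB, against 1.12%, 1.17% and 0.615% in R998 and 0.961%, 0.787% and 0.908% in R308. R998 replicate 9 had the lowest share of all 12 libraries, and the other 2 libraries of R998 the highest. Without it the difference was -0.233 percentage points (p = 0.0238, exact permutation test), and without it and R308 replicate 9 together -0.253 (p = 0.0286, exact permutation test). These 2 p-values were not adjusted, and they count the libraries of a line as separate members of its group. With each of the 12 libraries left out in turn, -0.233 was the largest difference in size. Seedling-enriched genes held 5.70% ± 0.564 of all counts in WFB and RFB and 5.67% ± 1.58 in R998 and R308 (SD, n = 6 each, p = 0.970, exact permutation test), with libraries from 4.66% to 6.20% and from 4.06% to 8.08%. Adjusted over these 3 tests by the Benjamini-Hochberg method, the exact permutation p with all 12 libraries was 0.338 for young-panicle-enriched genes and 0.970 for the other 2 sets.

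**Figure D3:**
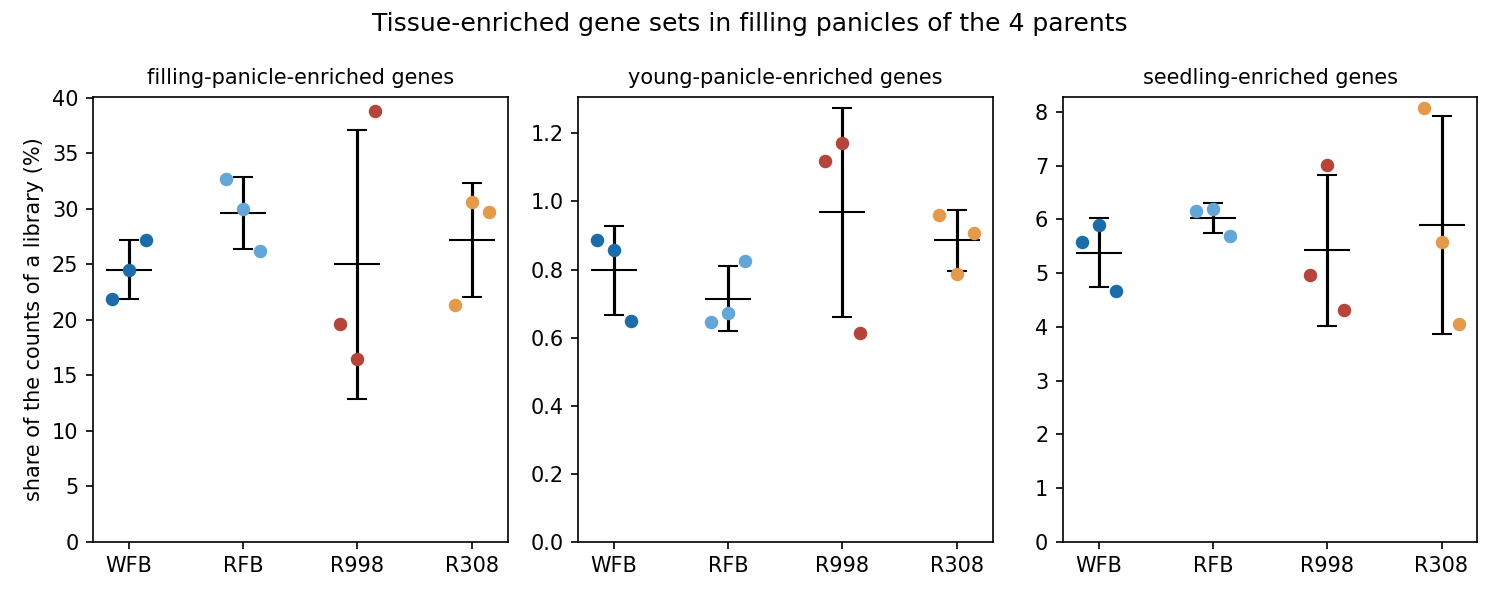
Points give the share of a library's counts, in percent, on genes enriched in filling panicles, young panicles or seedlings, with the mean and SD of 3 libraries for each line. In the left panel R998 spans 16.5% to 38.8%, a range that includes every library of the other 3 lines, and in the middle panel R998 holds both the highest and the lowest library.

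Gene by gene, the sets moved in unlike ways. Of the 661 filling-panicle-enriched genes 224 (33.9%) were called, near the 33.7% of all tested genes, 130 higher and 94 lower in WFB and RFB. In all 4 line pairs 67 (10.1%) were called, against 6.66% of all tested genes, 45 higher and 22 lower. This count moved with R998 replicate 9, the library with the largest share on these genes: without it 468 of 661 were called, 352 higher and 116 lower. Of the 986 young-panicle-enriched genes tested 329 (33.4%) were called, 51 higher and 278 lower, with a median difference of -0.33 on the log2 scale, against -0.01 over all tested genes. This lean was present in each pair, with medians of -0.26 and -0.38 in WFB against R998 and R308, and of -0.28 and -0.40 in RFB. Of the 269 seedling-enriched genes tested 132 (49.1%) were called, 88 higher and 44 lower. In all 4 line pairs 29 seedling-enriched genes (10.8%) were called, 15 higher and 14 lower. The share in all 4 pairs was thus about as high there as among filling-panicle-enriched genes. Among young-panicle-enriched genes it was 4.46% (44 genes), 5 higher and 39 lower. Whether the state of the panicles at harvest had a part in these counts was not tested.

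Among abundant filling-panicle-enriched genes called in all 4 pairs, the 2 higher ones differed by 2-fold or less and the 2 lower ones by over 8-fold. OsR498G0305897800.01 had 425, 308.4 and 336 CPM in WFB and 381, 314 and 438 CPM in RFB, against 144, 131 and 301 CPM in R998 and 170, 198 and 161 CPM in R308. The groups did not overlap, by a narrow margin at R998 replicate 9, and the difference was 0.996 on the log2 scale (SE 0.20, adjusted p = 0.0025, edgeR). OsR498G0510777600.01 averaged 194 ± 32.0 CPM in WFB and 221 ± 27.3 CPM in RFB, against 121 ± 18.7 CPM in R998 and 126 ± 20.2 CPM in R308 (SD, n = 3 each), a difference of 0.74 (SE 0.12, adjusted p = 0.000726, edgeR).

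The lower genes varied most in R998. OsR498G0510526000.01 had 7.01, 29.9 and 13.7 CPM in WFB and 28.9, 22.3 and 22.7 CPM in RFB, against 202, 288 and 1480 CPM in R998 and 111, 471 and 378 CPM in R308, a difference of -4.49 on the log2 scale (SE 0.60, adjusted p = 0.000141, edgeR). OsR498G0306018100.01 had 15.6, 33.7 and 5.55 CPM in WFB and 14.8, 31.2 and 53.9 CPM in RFB, against 581, 691 and 68.0 CPM in R998 and 331, 243 and 187 CPM in R308, a difference of -3.77 (SE 0.59, adjusted p = 0.000503, edgeR). R998 replicate 9 was the highest library of R998 at the first of these genes and the lowest at the second. Per length, in the deposited FPKM, OsR498G0510526000.01 stood at 27.1 ± 19.1 in WFB and 35.6 ± 3.50 in RFB, against 934 ± 870 in R998 and 476 ± 264 in R308 (SD, n = 3 each). On the same scale OsR498G0305897800.01 stood at 121 ± 24.4 in WFB and 116 ± 23.6 in RFB, against 61.6 ± 18.5 in R998 and 55.8 ± 0.835 in R308 (SD, n = 3 each). In WFB and RFB the second gene was thus the more abundant of the pair, and in R998 and R308 the first.

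The same average difference was then read in the young seedlings and young panicles of the 4 lines, in 1 model of 36 libraries, which called 42.1% of its genes in filling panicles. In either direction it called 21.4% in young seedlings and 39.9% in young panicles. Of the 1636 genes called in all 4 pairs in filling panicles, 840 (51.3%) were called in the same direction in young seedlings and 76 (4.65%) in the opposite one. Over the 24583 genes in both models, called or not in filling panicles, these shares were 15.9% and 6.37%. In young panicles 1053 of the 1636 genes (64.4%) were called in the same direction and 121 (7.40%) in the opposite one. Over the 24583 genes the shares there were 29.2% and 12.5%. In both other tissues 705 genes (43.1%) kept their direction with a call, and 330 (20.2%) were called in neither. These joint counts were not taken over all tested genes. No library is shared between the tissues, but the lines are the same.

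The difference between tissues was tested itself. Over all 26726 genes of this model, the average difference in filling panicles departed from that in young seedlings at 5919 genes (22.1%) and from that in young panicles at 8084 (30.2%). Among the 1636 genes, 893 (54.6%) departed from young seedlings and, by coincidence, as many from young panicles. From both tissues with 1 sign 523 genes (32.0%) departed, against 2510 (10.2%) of the 24583 genes in both models. From neither tissue 475 of the 1636 genes (29.0%) departed, a count not taken over all genes. The 1636 genes were chosen for their differences in filling panicles, so a departure toward a larger difference there follows in part from that choice, and these shares are descriptions.

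**Figure D4:**
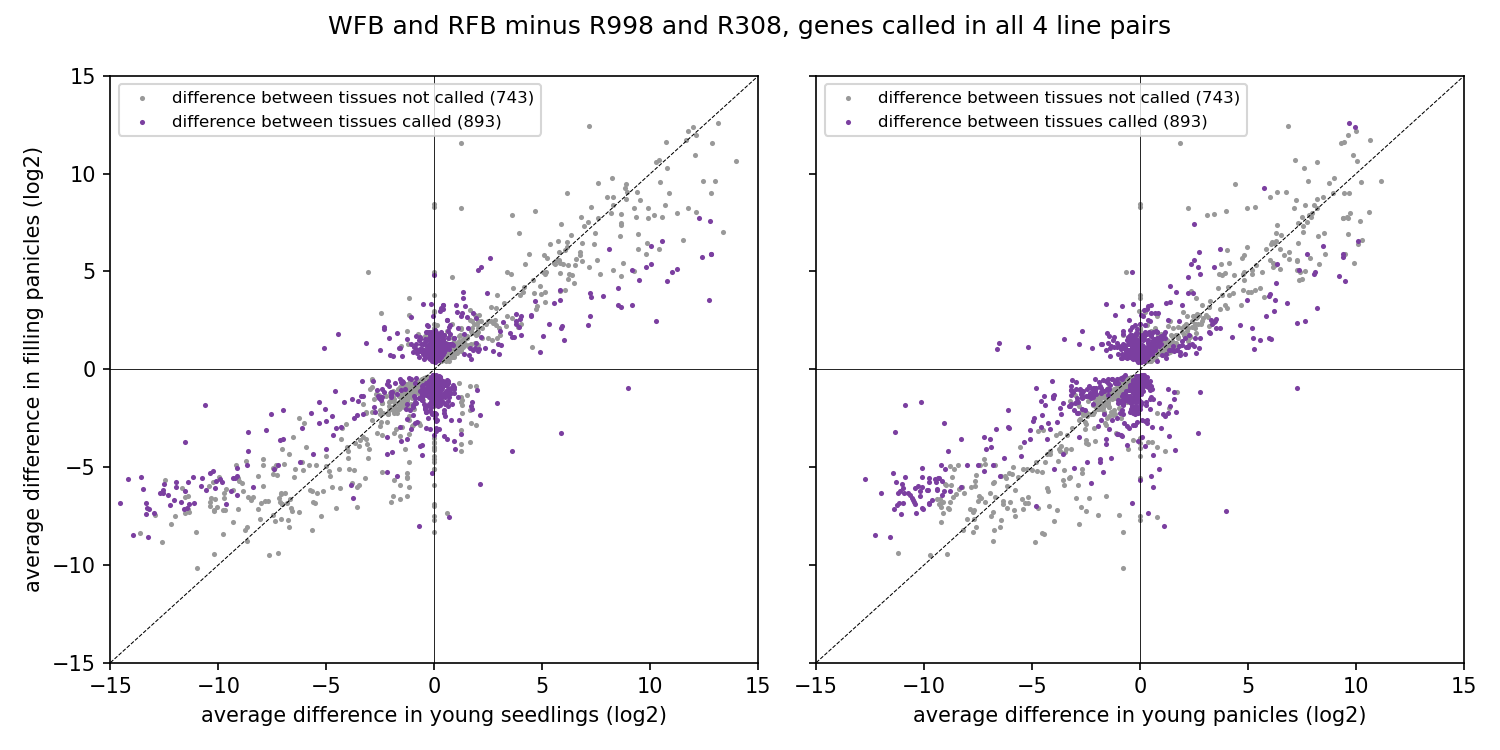
Each point is 1 of the 1636 genes called in all 4 line pairs in filling panicles, with its average log2 difference of WFB and RFB minus R998 and R308 in young seedlings (left) or young panicles (right) across and in filling panicles upwards. In each panel the 893 genes with a called difference between tissues are purple, and the others are grey. Many purple points lie close to 0 across, and the dashed line marks equal differences.

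A pair of genes changed order between tissues. OsR498G1222136100.01 was lower in WFB and RFB in filling panicles, at 2.90, 2.84 and 2.37 CPM in WFB and 3.03, 4.00 and 3.09 CPM in RFB, against 7.22, 6.06 and 5.24 CPM in R998 and 4.64, 5.98 and 7.08 CPM in R308 (log2 difference -0.998, SE 0.14, adjusted p = 0.00021, edgeR). In young seedlings it averaged 4.30 CPM in WFB and 3.40 CPM in RFB, against 0 in R998 and 0.0141 CPM in R308, and in young panicles 0.512 and 0.536 CPM in WFB and RFB, against no count in R998 and R308. R998 and R308 thus had this transcript in filling panicles only, among the 3 tissues, apart from a trace in seedlings of R308. The fitted difference in filling panicles departed from seedlings by -9.93 (SE 0.51, adjusted p = 2.88e-12, edgeR) and from young panicles by -8.25 (SE 0.55, adjusted p = 9.87e-11, edgeR), values that depend on the small count added to groups at 0.

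OsR498G0714097600.01 showed the loss on the other side. In filling panicles it had 0, 0.104 and 0 CPM in WFB and 0, 0 and 0.0325 CPM in RFB, against 2.41, 3.48 and 9.09 CPM in R998 and 5.11, 10.1 and 10.2 CPM in R308. In young seedlings, where it is enriched in the hybrids, it averaged 17.1 CPM in WFB and 11.8 CPM in RFB, against 18.7 CPM in R998 and 29.2 CPM in R308, and in young panicles 1.74 and 1.47 CPM in WFB and RFB, against 0.621 and 0.876 CPM in R998 and R308. WFB and RFB had the transcript in both other tissues and were near 0 in filling panicles. The departure was -7.28 from seedlings (SE 0.58, adjusted p = 2.56e-10, edgeR) and -9.10 from young panicles (SE 0.58, adjusted p = 1.19e-12, edgeR).

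The genes with the largest departures of positive sign were near absent in WFB and RFB in all 3 tissues, and least so in filling panicles. OsR498G0612514800.01 had 0.732, 0.521 and 0.742 CPM in WFB and 0, 0.896 and 2.24 CPM in RFB in filling panicles, against 43.0, 51.8 and 46.0 CPM in R998 and 41.0, 40.3 and 34.8 CPM in R308. In young seedlings WFB had no count and RFB averaged 0.0135 CPM, against 135 CPM in R998 and 156 CPM in R308, and in young panicles WFB had none and RFB averaged 0.0132 CPM, against 56.2 and 48.6 CPM in R998 and R308. The departures were 8.55 (SE 0.94, adjusted p = 2.61e-07, edgeR) and 7.13 (SE 0.83, adjusted p = 4.93e-07, edgeR) from the 2 tissues. Both sizes depend on the small count added to groups at or near 0 in those tissues. OsR498G1120638200.01 had a like pattern, with 0, 0.260 and 0.119 CPM in WFB and 0, 0.320 and 0.813 CPM in RFB in filling panicles, against 20.7, 19.7 and 20.1 CPM in R998 and 19.0, 17.3 and 15.4 CPM in R308, and no seedling count in WFB or RFB. In both genes RFB replicate 9 was the highest library of WFB and RFB, and RFB replicate 7 was at 0.

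The mean of the 4 hybrids between the groups lay between the means of the parental groups at nearly all of these genes. Each single hybrid did so at fewer. Positions were put on a scale with 0 at the mean of R998 and R308 and 1 at the mean of WFB and RFB. The mean of the 4 hybrids had a median position of 0.491 over the 1636 genes, and 98.2% of genes lay between 0 and 1. The genes were chosen for differences between the same parental libraries that set 0 and 1. A position between the groups thus follows in part from that choice. Positions were not taken over all tested genes, so these shares are descriptions. WY998 lay between at 87.9% of genes, WY308 at 81.6%, RY998 at 84.0% and RY308 at 83.7%. Of the genes outside, WY308 had 17.4% of all genes beyond the mean of R998 and R308, and RY308 had 15.1% beyond the mean of WFB and RFB. Each of these hybrids has only 1 parent in either group, so a level beyond a group mean need not be beyond its own parents. R998 and R308 were called apart at 153 of the 764 higher and 144 of the 872 lower genes. Over all 24583 tested genes they were called apart at 3997 (16.3%), so such calls are not particular to the 1636 genes. Positions between a hybrid's own parents were not taken. The hybrids did not lie at 1 place. WY998 and RY308 had medians of 0.624 and 0.616, nearer to WFB and RFB, while WY308 and RY998 had medians of 0.356 and 0.436, nearer to R998 and R308. The hybrids that were alike in position shared no parent, and the differences between hybrids were not tested. WR, the cross of WFB and RFB, had a median of 0.998. At genes higher in WFB and RFB its median was 0.919, with 38.9% of genes beyond the mean of WFB and RFB, and at genes lower in them it was 1.01, with 55.2% beyond. For WR that mean is the midpoint of its own parents, so a level beyond it need not be beyond either parent.

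**Figure D5:**
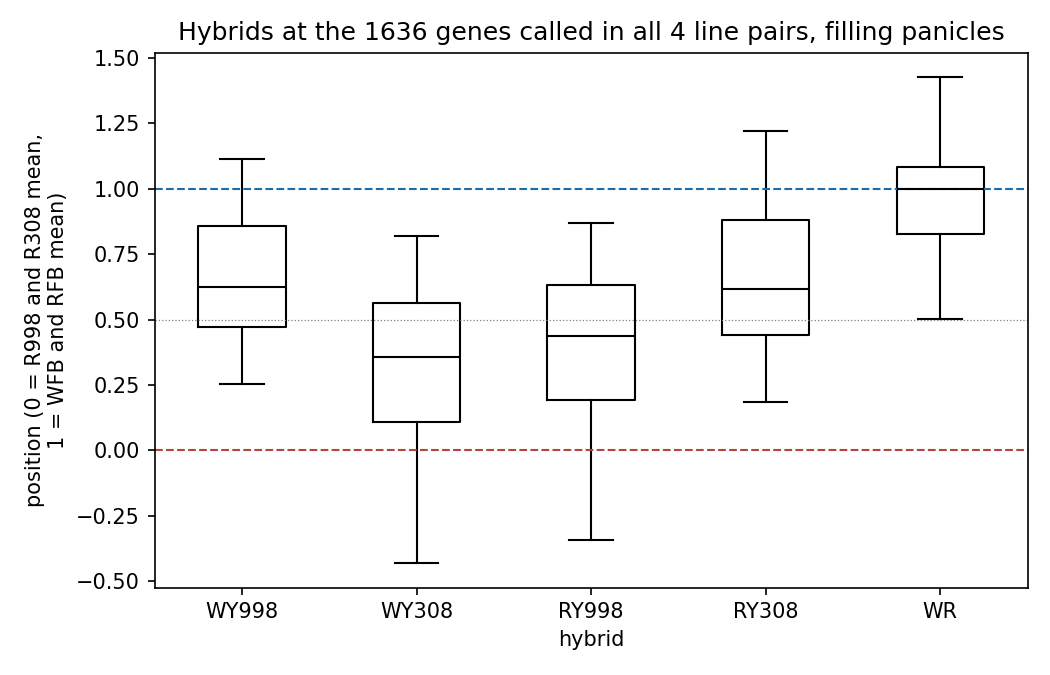
For each hybrid the box gives the median and quartiles, and the whiskers the 5th and 95th percentiles, of the position of 1636 genes between the mean of R998 and R308 (0, lower dashed line) and the mean of WFB and RFB (1, upper dashed line) in CPM. WY998 and RY308 lie at medians of 0.624 and 0.616, WY308 and RY998 at 0.356 and 0.436, and WR at 0.998.

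At the genes named above, the hybrids are given in CPM scaled over all 27 filling panicle libraries. OsR498G1119646100.01 averaged 23.9 ± 2.68 CPM in WY998, 22.2 ± 2.46 CPM in WY308, 21.3 ± 1.24 CPM in RY998, 21.9 ± 1.70 CPM in RY308 and 48.8 ± 1.28 CPM in WR (SD, n = 3 each), about the mid-parent level in the 4 crosses and the level of WFB and RFB in WR. OsR498G0714047000.01 was at 31.4 ± 14.04 CPM in WY998, 22.2 ± 12.8 CPM in WY308, 21.6 ± 3.10 CPM in RY998, 48.6 ± 13.4 CPM in RY308 and 103 ± 35.9 CPM in WR (SD, n = 3 each), where its 3 libraries had 91.3, 73.9 and 143 CPM, above the mean of either parent. OsR498G0305897800.01 was at 396 ± 141 CPM in WY998, 284 ± 158 CPM in WY308, 402 ± 7.49 CPM in RY998, 368 ± 154 CPM in RY308 and 369 ± 66.4 CPM in WR (SD, n = 3 each), so 3 of the 4 crosses between the groups averaged near the level of WFB and RFB, with wide spreads in WY998 and RY308. OsR498G0203221200.01 was at 17.8 CPM in WY998 and 24.7 CPM in WY308, at 20.6 CPM in RY998 and 17.1 CPM in RY308, and at 0.0189 CPM in WR. OsR498G0816020800.01, with no count in R308, averaged 24.0 CPM in WY998 and 25.3 in RY998, and 11.5 in WY308 and 12.6 in RY308. OsR498G1221362100.01, with no count in R998, averaged 8.99 CPM in WY998 and 9.61 in RY998, and 48.5 in WY308 and 33.8 in RY308.

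The first 2 digits of an identifier divide the gene models into blocks, and the order of identifiers within a block was used to list neighbours, without positions on a chromosome. The share of tested genes called in all 4 pairs was 10.4% in block 11 (143 of 1372) and 9.12% in block 09 (122 of 1337), against 4.86% in block 02, 5.05% in block 07 and 6.66% over all tested genes. None of the 96 tested genes of block 00 was called in all 4 pairs, although 17 were called in the average, 2 higher and 15 lower. Genes called in all 4 pairs had a next tested gene called in all 4 in the same direction 254 times (15.5%) and in the opposite direction 86 times (5.26%). Of all tested genes, 3.11% were called in all 4 pairs as higher and 3.55% as lower in WFB and RFB. Among 484 windows of 50 consecutive tested genes the median share called in all 4 pairs was 6%, 52 windows held none, and 1 window of block 11 held 46.0%. The longest run of consecutive genes was 7, all lower in WFB and RFB, also in block 11.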

How the data were processed

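Total RNA was depleted of ribosomal RNA and made into stranded libraries, per the labels. The submitters' processing notes name HISAT2 as aligner. How reads were counted, and on which build and annotation, is not given in the sources used here, so genes with near-identical copies are uncertain. The authors deposited whole-number read counts per gene model, which were tested. They also deposited FPKM values (scaled by gene length and library total), all within 1% of the count over a length and the total, and these were used only for lengths and for levels between genes.

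The 12 libraries were fitted with edgeR 4.0.16 under R 4.3.3: filterByExpr by line, trimmed mean of M-values (TMM) scaling, and a quasi-likelihood model with 1 mean for each line. The contrast was the mean of WFB and RFB minus the mean of R998 and R308 on the log2 scale. P-values are two-sided and adjusted by the Benjamini-Hochberg method over all genes tested, at a threshold of 0.05. Tissues were compared in a model of the 36 parental libraries. CPM values are counts per TMM-scaled library size, over the 12 filling panicle libraries for the parents, the 27 for hybrids and the 36 for other tissues. Tissue-enriched sets were drawn from hybrid libraries (mean of at least 5 CPM and 8 times both other tissues). A group at 0 was given a floor of 3 counts, and intervals and floors cover counting error only. Libraries of 1 line differed beyond sampling error (chi-square over degrees of freedom 11.3 to 290) and each counted as a replicate. The test was tried on simulated data, and DESeq2 1.42.0 was an alternative. Summaries used Python 3.11.15, numpy 2.4.6, scipy 1.17.1 and pandas 2.3.3, and figures matplotlib 3.10.9.

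The name table used here (39387 genes) held none of the 38714 identifiers, so at most 2 higher and 2 lower genes are named in each comparison. Those with the largest or, in the filling-panicle-enriched set, most abundant differences were taken among genes with at least 5 CPM in the higher group and groups that did not overlap. The members, lists, tests and this rule were chosen with earlier results of these data known.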

Additional observations from a re-analysis of the deposited data

Results flagged for a closer look

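Among 38 groups of 6 libraries examined, 5 held a library far from the other 5, and chance gives about 1 in 20. R308 replicate 9 had 0.0301 CPM of OsR498G1119646100.01, against 0 in the other libraries of R998 and R308. R998 replicate 9 had 1480 CPM of OsR498G0510526000.01, against 111 to 471 CPM in the other libraries of R998 and R308. WFB replicate 8 had 0.104 CPM of OsR498G0714097600.01, against 0 to 0.0325 CPM in the other libraries of WFB and RFB. R308 replicate 9 had counts on 37377 gene models, against 27193 to 28816 in the other libraries of R998 and R308. WFB replicate 9 had 6.76% of its counts in block 00, against 8.15% to 8.77% in the other libraries of WFB and RFB.

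The average difference departed between tissues in a test of that departure (edgeR, adjusted p under 0.05) at 5919 genes for filling panicles minus young seedlings and at 8084 genes for filling panicles minus young panicles. Against young seedlings and young panicles in turn, the departure on the log2 scale was 8.55 and 7.13 for OsR498G0612514800.01, 6.40 (adjusted p = 0.00123, edgeR) and 5.69 (adjusted p = 8.52e-05, edgeR) for OsR498G1120638200.01, -9.93 and -8.25 for OsR498G1222136100.01, and -7.28 and -9.10 for OsR498G0714097600.01. Each of these values involves groups at or near 0, so its size depends on the small count added to them.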

How the results depend on the processing

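Leaving out R998 replicate 9, alone or with R308 replicate 9, moved more results than any change of tool, filter or scaling. Without both libraries 2996 genes were called in all 4 pairs, 227 between WFB and RFB, 7040 between R998 and R308, and 468 of the filling-panicle-enriched genes, and the share differences were 5.05 percentage points for filling-panicle-enriched, -0.253 for young-panicle-enriched and -0.708 for seedling-enriched genes. With each library left out in turn, the genes called ranged from 6717 to 10841 in the average, from 1114 to 2528 in all 4 pairs, from 73 (without WFB replicate 7) to 168 between WFB and RFB, from 3041 to 6973 between R998 and R308, and from 187 to 468 in the filling-panicle-enriched set. The share differences ranged from -0.952 to 3.51 (filling panicles), from -0.233 to -0.122 (young panicles) and from -0.290 to 0.514 (seedlings), so the sign of the first and the third was not fixed. Between WFB and RFB 211 genes were called by DESeq2 and 180 with all 27 filling panicle libraries. Seedling-enriched sets at 4-fold gave -0.0813. The average called 7503 (no filter) to 9842 genes (27 libraries, 5057 higher and 4785 lower) under the other planned settings. With DESeq2's size factors the departures from young seedlings were 2697 positive and 3145 negative (3168 and 2751 with TMM), and from young panicles 3735 and 4468 (4451 and 3633 with TMM). All 24 values of named genes kept their direction and their side of the threshold in 456 alternatives. These genes were chosen from the same libraries as called differences without overlap, so this follows in part from that choice. It does not speak for the other called genes. The cause of the shifts in the counts and shares above was not tested.

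Replicate numbers did not pair the libraries: correlations of same-numbered libraries ran from -0.243 to 0.278, 6 of 18 were over 0.1, and 5 of 12 libraries correlated best with their own number. With the replicate block the average called 7858 genes (3886 higher and 3972 lower) and all 4 pairs 1507.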

Other observations

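Genes with no count in the seedlings of 1 group were read in the other tissues, a choice made after the tissue comparison was seen. No count fell on 34 genes in the 6 seedling libraries of WFB and RFB although R998 and R308 each had at least 5 CPM there. In filling panicles the summed level of these genes, as a percentage of the mean of R998 and R308, was 0.734%, 1.25% and 0.747% in WFB and 0.236%, 1.81% and 4.15% in RFB, and in young panicles it was 0.0928% to 0.190% in the 6 libraries. RFB replicate 9 was the highest, with 522 counts on 30 of the genes. In the reverse case 20 genes had no seedling count in R998 and R308, and their summed level in filling panicles was 0.313%, 0.502% and 0.767% in R998 and 0.0933%, 0.169% and 3.69% in R308, as a percentage of the mean of WFB and RFB. R308 replicate 9 was the highest there, with 303 counts on 13 of the genes.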
